A study of Mus musculus with 32 samples.

Results

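Actinomycin D-treated and protein-free RNA–chromatin contacts were compared in mouse embryonic stem cells (mESCs) of the R08 line by RADICL-seq, which ligates RNA to nearby DNA inside fixed nuclei through a bridge adapter, so that a sequenced molecule holds an RNA tag and a DNA tag. All cells were fixed with 1% formaldehyde. The ActD4 group (2 libraries) had received actinomycin D at 5 µg/ml for 4 h before fixation. The NPM group (non-protein-mediated, 2 libraries) came from untreated cells, and proteinase K under denaturing conditions had removed the proteins, and with them the crosslinks, ahead of RNA ligation. By the study's methods the NPM ligations were then done in solution on purified nucleic acids and not inside nuclei. A column inside the NPM lists names their condition Control, and they are taken as NPM from the sample titles. The 1FA group (untreated cells with the proteins left in place, 3 libraries) is given as the common background of both. ActD4 and NPM thus differ in drug, in protein removal and in the setting of the ligation at once. The parts of these steps in a difference cannot be told apart from the direct comparison.

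The interactions compared were every distinct combination of RNA tag and DNA tag positions in the deposited ActD4 and NPM lists, 1714187 of the 25231081 interactions (6.79%) in the 15 libraries of the series. ActD4 1 and ActD4 2 held 418781 and 251802 interactions, and NPM 1 and NPM 2 held 434610 and 608994. The 1FA libraries held 2667971, 2441619 and 2832717. The lists hold only pairs of an RNA and a 25-kb bin that passed the authors' significance threshold, tested on pooled replicates, so these totals are not sequencing depths and an RNA without a listed pair is written here as listed at 0. The smallest listed pair held 6 pooled interactions in ActD4, 3 in NPM and 3 in 1FA. Because replicates share a list of pairs, the spread between them may be understated. By the study's methods, replicates are cells of the same line taken at different passages, so p-values measure only the spread between passages of 1 line. The labelled cell type was checked by its markers, and 12 embryonic stem cell marker RNAs summed to 1884 and 1926 CPM (interactions per 1000000 interactions of the library) in ActD4 and to 1963 and 2020 in NPM, with Dppa2 alone listed at 0 in all 4 libraries. For oligodendrocyte progenitors, the other cell type of the series, 8 markers summed to 21.5 and 3.97 CPM in ActD4 and 82.8 and 70.6 in NPM, and Sox10, Olig1 and Olig2 were listed at 0 in all 4.

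Actinomycin D intercalates into DNA and stops RNA polymerases from elongating, so that nascent transcripts are no longer extended while RNAs already made are processed, released or degraded. RNA can be held near chromatin by a polymerase still transcribing it, by RNA-binding proteins, by base pairing with DNA or other RNA, or by the crosslinked protein mesh of a nuclear body. In embryonic stem cells the best known RNAs that contact many chromosomes are small nuclear RNAs (snRNAs) of the spliceosome, small nucleolar RNAs (snoRNAs) that guide ribosomal RNA processing, and Malat1, a long noncoding RNA of nuclear speckles.

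The 2 small RNAs that follow are shown because they contributed much of the small noncoding RNA in ActD4 and because the place at which the adapter joined them could be read from their tags. Sequences are from the GRCm38 (mm10) genome, given 5′ to 3′ on the RNA strand. Gm22973 (chr12:59040335-59040525, plus strand, 191 bases) is annotated as a snRNA gene of the U2 type, a family with near-identical copies, so its interactions may include those of other U2 genes. Snord118 (chr11:69073427-69073561, plus strand, 135 bases) is the U8 snoRNA, which acts in processing of the large ribosomal subunit RNAs. Capitals mark the bases around the most frequent centre of the ActD4 RNA tags.
Gm22973: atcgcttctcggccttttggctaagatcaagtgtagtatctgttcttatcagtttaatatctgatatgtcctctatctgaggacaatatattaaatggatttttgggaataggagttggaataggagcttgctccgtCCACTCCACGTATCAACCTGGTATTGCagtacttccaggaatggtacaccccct
Snord118: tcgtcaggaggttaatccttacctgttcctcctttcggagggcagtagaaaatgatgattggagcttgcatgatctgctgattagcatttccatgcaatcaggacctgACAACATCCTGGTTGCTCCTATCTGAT

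The tags of Gm22973 lay at a different place in the 2 kinds of library. In ActD4, 97.3% and 97.5% of its tags were centred within 1 base of position 151, counted from the 5′ end, against 10.4% and 9.23% in NPM. In 1FA the same position held 98.0%, 98.6% and 98.7%. The most frequent centre in NPM was position 174, which held 50.2% of the 221 tags of NPM 1 and 52.3% of the 65 tags of NPM 2. The last 30 bases held 81.9% and 76.9% of the NPM tags but 0.151% and 0.189% of the ActD4 tags. The adapter was thus joined mostly near the annotated 3′ end in NPM and farther inside the RNA in ActD4 and 1FA. Snord118 did not show such a move. Its last 30 bases held 98.4% and 98.5% of tags in ActD4 and 100% in both NPM libraries.

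The distance between the RNA tag and the DNA tag separated ActD4 from NPM by the largest difference of the 7 shares tested. In NPM, 84.4% and 86.2% of interactions joined tags within 1 kb on the same chromosome, against 14.7% and 13.6% in ActD4, a difference of −71.2 percentage points between means of 14.1% ± 0.822 and 85.3% ± 1.24 (SD, n = 2 each). The 1FA libraries held 3.80%, 5.52% and 4.30% in this class, below both. At 1–10 kb the libraries held 17.5% and 17.4% in ActD4 and 9.72% and 7.16% in NPM. The class of 10–100 kb was the largest in ActD4, with 34.8% and 35.4%, and held 2.02% and 1.50% in NPM. Between 100 kb and 1 Mb the shares were 22.9% in both ActD4 libraries and 0.0934% and 0.0898% in NPM, while 1FA held 41.1%, 38.3% and 40.1%. Beyond 1 Mb in cis they were 1.75% and 1.77% in ActD4, 0.130% and 0.214% in NPM, and 11.5%, 10.5% and 11.1% in 1FA. In each class the ActD4 and NPM libraries did not overlap.

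**Figure D1:**
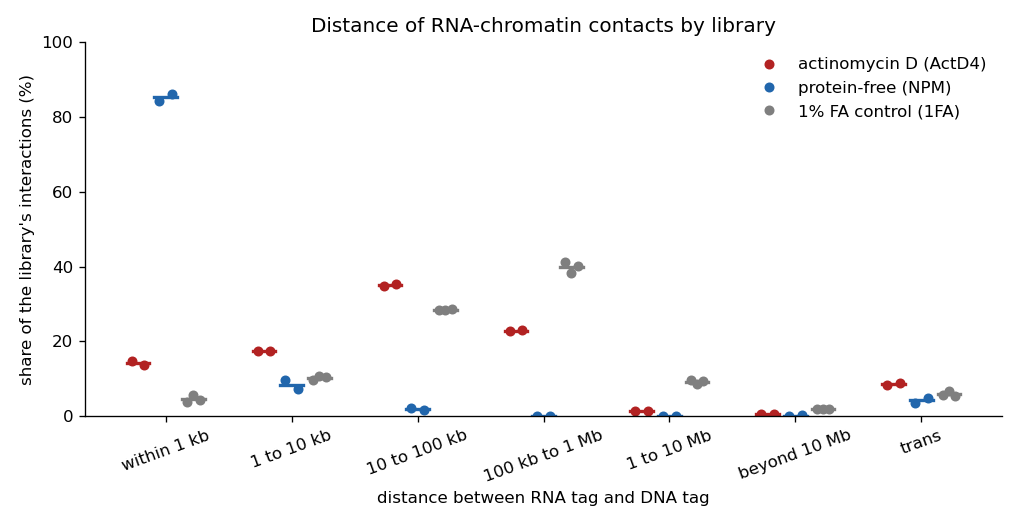
Share of a library's interactions (y axis, percent) in each class of distance between RNA tag and DNA tag (x axis) for the 2 ActD4, 2 NPM and 3 1FA libraries, with points for libraries and bars for group means. NPM sits above 84% within 1 kb, whereas the largest class is 10–100 kb in ActD4 and 100 kb–1 Mb in 1FA.

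Interactions of RNAs with DNA of the gene they came from, called own-gene contacts, made up 55.7% and 54.5% of interactions in ActD4, 95.8% and 94.6% in NPM and 29.8%, 32% and 31.7% in 1FA. Trans contacts, with DNA on another chromosome, were 8.39% and 8.96% of interactions in ActD4, 3.61% and 4.87% in NPM and 5.51%, 6.73% and 5.44% in 1FA, so that in these lists ActD4 was the highest group and NPM the lowest. Before its significance threshold the study reports the highest trans share in NPM and the lowest in untreated cells. This order therefore describes the listed pairs only. The trans difference of 4.43 percentage points rested on a few RNAs, since it was −2.89 without the 10 most captured RNAs. Small noncoding RNA gave 7.61% and 8.10% of interactions in ActD4, 2.53% and 0.876% in NPM and 3.20%, 5.17% and 4.22% in 1FA. That difference of 6.15 percentage points was −0.426 without the same 10 RNAs. Long noncoding RNA gave 3.03% and 3.08% in ActD4, 4.21% and 3.94% in NPM and 4.73%, 3.89% and 3.55% in 1FA. For 7 shares (within 1 kb, trans, beyond 1 Mb in cis, own gene, intronic tags, long noncoding RNA and small noncoding RNA) the ActD4 and NPM libraries did not overlap. The exact two-sided permutation test over the 6 splits of 4 libraries gave p = 0.333 for each share, adjusted 0.333, which is the smallest p this design allows.

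The excess near the RNA held for each region and RNA class given here. Among intronic tags of protein-coding genes, 94.0% and 92.6% lay within 1 kb of their DNA tag in NPM and 15.0% and 13.9% in ActD4. Among the regions of protein-coding RNA, coding sequence tags were the least proximal in NPM, at 56.0% and 59.6%, against 16.5% and 15.2% in ActD4. For long noncoding RNA the share within 1 kb was 91.1% and 89.9% in NPM and 12.4% and 11.1% in ActD4. Small noncoding RNA had 56.5% and 58.7% in NPM and 1.40% and 1.19% in ActD4.

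The DNA tag also lay on a different side. For tags 2 bp to 1 kb apart, the DNA was upstream of the RNA tag, in the sense of transcription, in 97.1% and 98.9% of NPM interactions and 65.9% and 66.8% of ActD4 interactions. In 1FA the share was 66.3%, 67.1% and 62.0%, a range that held both ActD4 libraries. At 10–100 kb NPM remained upstream in 96.7% of both libraries, whereas ActD4 had turned to the downstream side, with 38.5% and 38.3% upstream, and 1FA had 38.3%, 38.3% and 38.6%. Only beyond 1 Mb were the NPM values near even, at 47.4% and 45.2%, over 563 and 1302 interactions. Within 2 bp to 1 kb the median distance was 306 and 320 bp in ActD4, 252 and 253 bp in NPM and 347, 328 and 340 bp in 1FA. Tags at the same position or 1 bp apart were 6.38% and 5.61% of NPM interactions, 3.26% and 1.91% of ActD4 and at most 0.702% of any 1FA library.

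**Figure D2:**
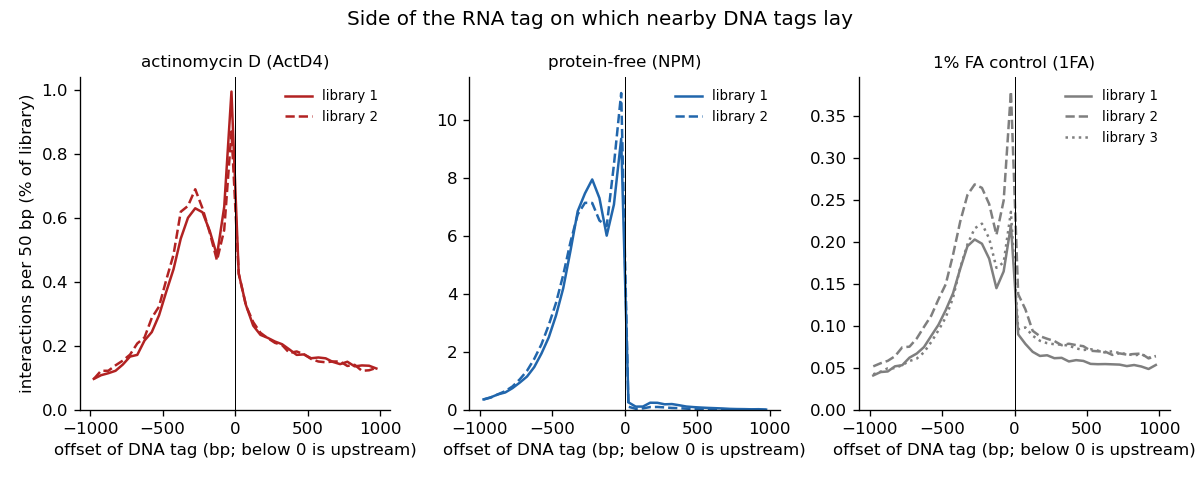
Interactions per 50 bp as a percent of the library (y axis, with a different scale in each of the 3 panels) against the offset of the DNA tag from the RNA tag (x axis, values below 0 upstream), 1 line per library of ActD4, NPM and 1FA. The NPM curves lie almost wholly upstream, where 97.1% and 98.9% of their interactions at 2 bp to 1 kb fall, while ActD4 and 1FA have DNA on both sides.

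In NPM the DNA tags of spliced regions lay in exons. Where the RNA tag was in coding sequence and the DNA tag in the same gene 1–10 kb away, the DNA tag lay in an exon in 96.7% and 93.5% of NPM interactions and in 33.9% and 33.8% of ActD4 interactions. Exons made up 20.4% to 22.1% of the length of the same genes in these 4 libraries. The 1FA libraries had 31.2%, 32.5% and 31.1%. At 10–100 kb the exonic share was 97.4% and 96.0% in NPM and 16.4% and 16.1% in ActD4, against exonic lengths of 11.7% to 12.2%. The distance along the joined exons of those 1–10 kb pairs had a median of 404 and 407 bases in NPM and 1047 and 974 in ActD4, although their genomic medians were alike (3189 and 3133 bp against 3286 and 3154 bp). At 10–100 kb the joined distance was 723.5 and 708 bases in NPM and 3378 and 3293 in ActD4. The DNA tag was upstream in 99.8% of the NPM pairs at 1–10 kb and in 36.9% and 38.8% of the ActD4 pairs.

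The same pattern held for 3′ UTR tags, with DNA in exons for 94.2% and 91.7% of NPM and 46.4% and 44.9% of ActD4 interactions at 1–10 kb. Intronic RNA tags were farther from it at that distance, with 21.2% and 34.1% in NPM and 11.1% and 11.7% in ActD4. At 10–100 kb intronic tags had 54.2% and 60.9% in NPM and 8.43% and 8.70% in ActD4. No test was run on these shares, in which the 2 groups did not overlap. The origin of the exonic tags on the DNA side of NPM was not tested.

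**Figure D3:**
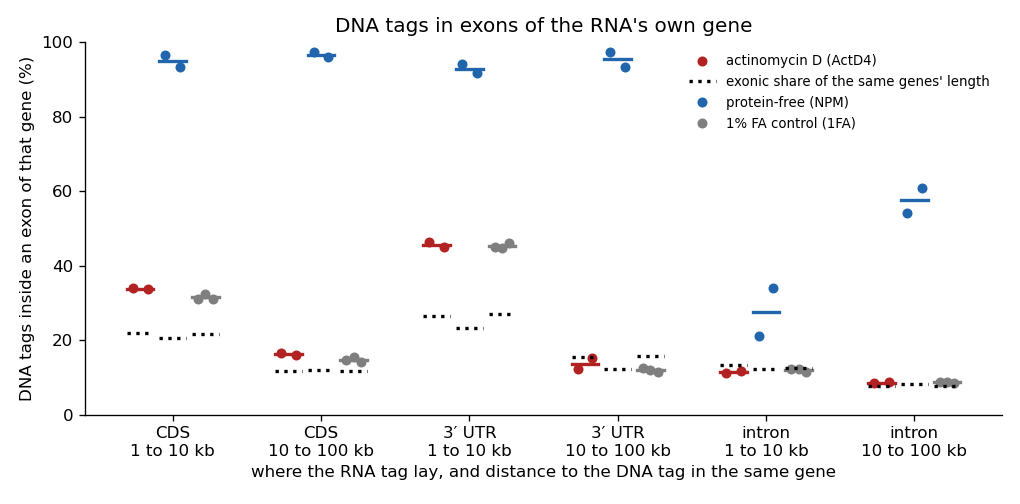
Share of same-gene interactions whose DNA tag lay in an exon (y axis, percent) by the region of the RNA tag and the distance between the tags (x axis), with points for libraries, solid lines for group means and dotted lines for the exonic share of the length of the same genes. NPM stands above 91% for coding sequence and 3′ UTR tags in both distance classes, far from the dotted lines, and ActD4 and 1FA lie nearer to them.

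RNA tags in ActD4 lay toward the start of genes. In protein-coding genes of 10–100 kb, 15.1% and 15.3% of the ActD4 tags fell in the first 1 kb, against 2.31% and 2.15% in NPM and 5.28%, 3.92% and 4.05% in 1FA. The first 5 kb held 33.6% and 33.7% in ActD4 and 12.3% and 12.6% in NPM. The last 1 kb held 1.57% and 1.48% in ActD4 and 4.72% and 4.18% in NPM. The median tag lay 30.2% and 30.4% of the way along the gene in ActD4, 56.6% and 55.2% in NPM and 45.0%, 45.7% and 45.3% in 1FA, so that ActD4 and NPM lay on opposite sides of 1FA. The lead of the first 1 kb was present in every length class: 42.5% and 42.8% against 17.2% and 13.7% in genes under 10 kb, 5.15% and 5.26% against 0.552% and 0.599% at 100–300 kb, and 1.80% and 1.85% against 0.190% and 0.201% over 300 kb.

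**Figure D4:**
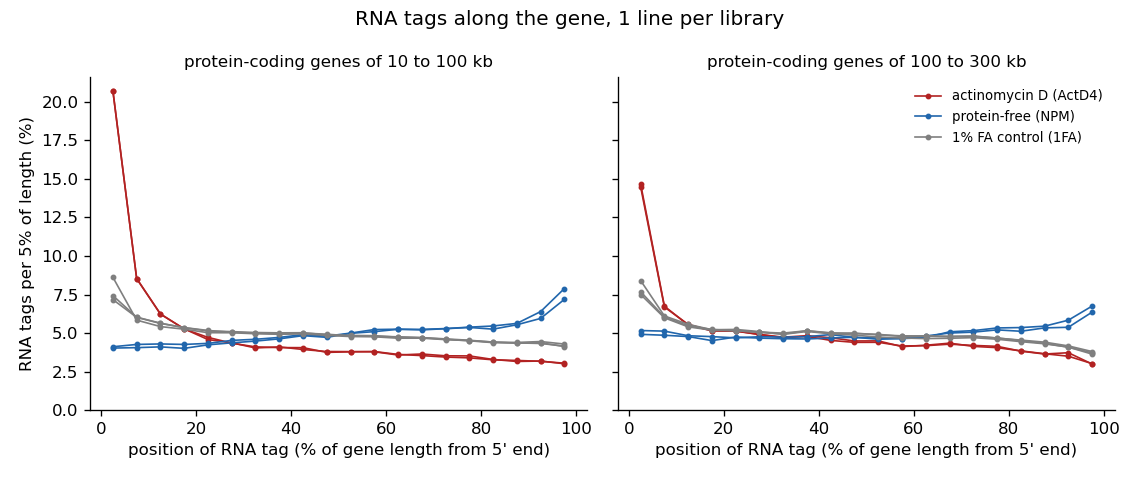
Share of the RNA tags of a library (y axis, percent) in 20 bins of 5% of gene length from the 5′ end to the 3′ end (x axis) for protein-coding genes of 10–100 kb and of 100–300 kb, 1 line per library. ActD4 tags peak in the first bins and NPM tags do not, with 1FA between them at the 5′ end.

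Gene by gene, 1489 protein-coding genes of 10–100 kb had at least 20 interactions in every ActD4 and NPM library. Both ActD4 libraries had a higher share in the first 1 kb than both NPM libraries in 1261 genes (84.7%), and a lower one in 5 (0.336%). The median tag was nearer the 5′ end in both ActD4 libraries in 1290 genes (86.6%) and nearer the 3′ end in 21 (1.41%). These are descriptions without a test. The genes named next were chosen after their values were seen, for their number of interactions or their exception. Jade1, which encodes a subunit of histone acetyltransferase complexes, had 21.5% and 17.5% of tags in the first 1 kb in ActD4 and 3.13% and 3.99% in NPM. Cnot1, the scaffold of the CCR4–NOT deadenylase, had 17.6% and 15.7% against 1.71% and 1.17%, and its median tag moved from 50.3% and 57.1% of the gene in NPM to 32.3% and 31.2% in ActD4. Akap12, an anchoring protein for protein kinase A, had 16.4% and 8.64% against 0.637% and 1.47%. In these 3 genes the groups did not overlap.

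Srrm2, a splicing factor of nuclear speckles, did not follow, since no tag lay in its first 1 kb in any of the 4 libraries and its median tag lay at 75.9% and 77.1% in ActD4 and 75.1% and 77.6% in NPM. The 5 genes with a lower share in ActD4 were Kdm4b, Ppm1a, Tnrc18, Chmp4b and Rnf123. Kdm4b, a histone H3 lysine 9 demethylase, had 5.77% and 3.79% in ActD4 and 9.09% and 6.02% in NPM, and the other 4 had 0 tags in their first 1 kb in ActD4 and at most 6.25% in NPM.

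By region, coding sequence held 11.2% and 11.5% of RNA tags in ActD4 and 20.7% and 16.8% in NPM. The 5′ UTR held 3.12% and 3.16% in ActD4 and 0.749% and 0.677% in NPM, and the 3′ UTR 2.48% and 2.44% against 7.10% and 6.68%. Introns held 71.0% and 70.1% in ActD4, 63.6% and 69.2% in NPM and 80.3%, 81.1% and 82.2% in 1FA. The intron difference of 4.15 percentage points was close to the spread between the NPM libraries (SD 3.94). When each pair of an RNA and a bin was counted once, it was −0.987.

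The RNAs in trans differed in kind. In ActD4 small noncoding RNA made up 83.4% of trans interactions in both libraries and protein-coding RNA 0.495% and 0.612%. In NPM protein-coding RNA made up 63.8% and 86.5%, and small noncoding RNA 29.1% and 7.18%. The 1FA libraries, with 55.1% to 75.2% small noncoding and 1.95% to 3.01% protein-coding RNA, lay nearer ActD4. Long noncoding RNA held 16.1% and 16.0% of trans contacts in ActD4 and 6.82% and 6.17% in NPM. These NPM shares rest largely on 1 bin of DNA, described next.

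The NPM trans contacts converged on a single 25-kb bin, chr17:39825001-39850000 (mm10). The bin holds the annotated genes Gm26917, CT010467.1 and Gm42418, a region that carries ribosomal RNA gene sequence, where DNA tags from rDNA copies can align. It held 69.7% and 89.6% of the trans interactions of NPM 1 and NPM 2, against 8.86% and 9.47% in ActD4 and 6.83%, 7.48% and 4.91% in 1FA. In NPM it was contacted by 2000 and 2066 RNAs, of which protein-coding RNA gave 77.0% and 90.9% of the interactions. In ActD4 it was contacted by 142 and 141 RNAs, and small noncoding RNA gave 91.9% and 91.0%, led by Snord118 with 567 and 389 interactions. Malat1 led the bin in NPM with 242 and 608. The bin was also first by trans interactions in ActD4, so the groups differed in its share and its RNAs, not in its rank. The study's methods describe the removal of contacts in blacklisted regions after the significance threshold, but this bin is present in the deposited lists, and whether it is among those regions was not tested. The significant NPM set counted in the study holds far fewer trans interactions than the 15691 and 29657 listed here. Its trans share is also lower, so the NPM trans shares here are not those of that set. Without the bin, trans contacts were 7.65% and 8.11% of all interactions in ActD4, 1.09% and 0.505% in NPM, and 5.14%, 6.23% and 5.17% in 1FA. The kinds of RNA in NPM trans contacts also depended on the bin. Outside it protein-coding RNA made up 33.5% and 48.4% of them, small noncoding RNA 51.6% and 25.7%, and long noncoding RNA 14.2% and 25.1%. These NPM shares still rest in part on few bins. Of the 4756 and 3078 NPM trans interactions outside the chr17 bin, chr18:73525001-73550000 held 1595 and 413. A second bin, chr11:109000001-109025000, held 602 and 869. In ActD4 the next bin after chr17 held 144 of 32028 and 88 of 20417. In ActD4 the corresponding shares were 0.0531% and 0.0392%, 82.54% and 82.56%, and 17.4% in both libraries, so that long noncoding RNA no longer separated the groups.

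Gm22973, the U2 snRNA gene, had 18238 and 11430 trans interactions in ActD4 and 177 and 41 in NPM. It accounted for 51.9% and 50.7% of all trans contacts in ActD4 and 1.13% and 0.138% in NPM. Its pooled trans contacts fell in 1837 bins in ActD4, 7 in NPM and 9020 in 1FA. Snord118 had 7449 and 4996 trans interactions in ActD4 and 214 and 36 in NPM, in 840 and 8 bins. Its trans contacts amounted to 17787 and 19841 CPM in ActD4 and 910, 2163 and 1038 in 1FA, so that ActD4 lay above 1FA as well as above NPM, at 492 and 59.1. Gm22973 differed in this respect, since its ActD4 values of 43550 and 45393 CPM lay within or just above those of 1FA (27092, 45303 and 38289).

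Malat1 was captured alike in total but not in place. It had 6225 and 3990 interactions in ActD4 and 7010 and 8163 in NPM, and its capture did not pass the test (log2 difference 0.45, SE 0.34, limma adjusted p = 0.316). In ActD4, 90.8% and 90.5% of them were trans, against 12.4% and 16.0% in NPM and 92.6%, 92.5% and 92.0% in 1FA. Within 1 kb lay 4.48% and 4.21% in ActD4 and 86.8% and 83.2% in NPM. Its trans contacts fell in 729 bins in ActD4 and 48 in NPM.

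Rnu3a, the U3 snoRNA, had 1604.7 and 1823 CPM of trans contacts in ActD4 and 1109 and 182 in NPM, and Snord13 had 1046 and 1144 against 757 and 149, both lower in NPM and unevenly so. Rmrp, the RNA of RNase MRP, had 1631 and 1652 CPM in ActD4 and 1466 and 898 in NPM, and was also lower in both NPM libraries. Snord14e, a box C/D snoRNA, was higher in NPM, with 184 and 226 CPM in ActD4 and 667 and 310.3 in NPM. The mitochondrial ribosomal RNA mt-Rnr1 had 173 and 93 trans interactions in ActD4 and 683 and 248 in NPM. In CPM these were 413 and 369 against 1571.5 and 407, so that NPM 1 alone lay above the ActD4 libraries.

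Among protein-coding RNAs with the most trans contacts in NPM, Jarid2, a cofactor of Polycomb repressive complex 2, was listed at 0 in ActD4 and had 90 and 178 in NPM. Wwox had 7 and 1 in ActD4 and 106 and 236 in NPM. Fgfr2, a fibroblast growth factor receptor gene whose annotated span covers neighbouring genes, had 5 and 7 against 127 and 224. In NPM the chr17 bin held most trans interactions of protein-coding RNA, and the part of these RNAs in it was not separated. Of the 2609 trans pairs of an RNA and a bin listed in NPM, 110 (4.22%) were also among the 3767 listed in ActD4, 2.92% of those. Most of these NPM pairs were with the chr17 bin. It was contacted by 2000 and 2066 RNAs in NPM and by 142 and 141 in ActD4. The overlap outside that bin was not counted. Of the trans pairs of ActD4 62.7% were also listed in 1FA, and of those of NPM 34.3%.

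**Figure D5:**
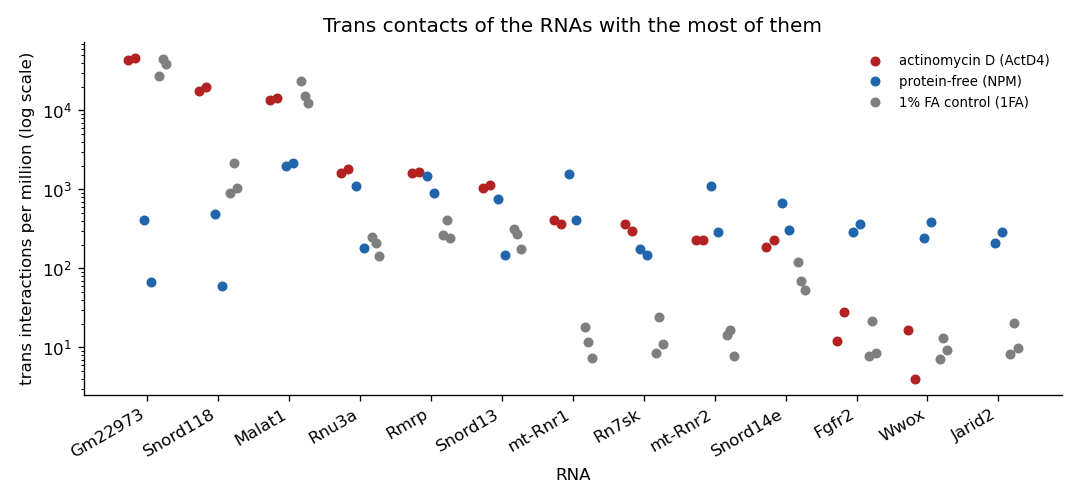
Trans interactions in CPM (y axis, logarithmic) for 13 RNAs with the most trans contacts in ActD4 or NPM, with 1 point per library of ActD4, NPM and 1FA. Gm22973, Snord118 and Malat1 lie higher in ActD4 than in NPM and Fgfr2 and Wwox lower, while Jarid2 was listed at 0 in both ActD4 libraries and has no point there.

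Capture per RNA, the number of listed interactions of an RNA in a library, was compared for 7712 RNAs as log2 CPM on TMM-scaled library totals in limma, with Benjamini–Hochberg adjustment over all 7712. In ActD4, 1368 RNAs were higher (17.7%) and 1895 lower (24.6%) at an adjusted p under 0.05, with a median log2 difference of −0.17. Scaling by plain library totals gave 751 higher and 2727 lower with a median of −0.54, so the higher share of the calls moved from 41.9% to 21.6%. Differences are therefore relative to the scaling. All 818 tested RNAs that were listed at 0 in both ActD4 libraries were called lower. They passed the filter through NPM alone, and the smallest listed pair was larger in ActD4, so their call was fixed by the filter and the lists and is no result. Of the 6894 tested RNAs with an interaction in ActD4, the same 1368 were higher (19.8%) and 1077 lower (15.6%), or 751 higher (10.9%) and 1909 lower (27.7%) with library totals. The filter asked for 10 interactions in 2 libraries, and 1490 of the 1895 lower RNAs reached that number in both NPM libraries but not in both ActD4 libraries. Of the 4027 RNAs with at least 10 interactions in all 4 libraries, 1207 were higher and 405 lower. All 18 tested RNAs listed at 0 in both NPM libraries were called higher, stay among the 1368 and are no result either. The 6894 thus still include RNAs that passed the filter through a single group, and the shares of calls among them depend partly on the filter. Classes and gene lists are set against these shares, or against those of all RNAs, as a description only. In these bulk libraries fewer cells with an RNA and less RNA per cell cannot be told apart.

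Numbers given for single RNAs are unscaled, so some that overlap between groups differ once the smaller total of ActD4 2 is taken into account.

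The largest changes are given among called RNAs with no overlap between groups and a mean of at least 100 interactions in the higher group, and RNAs with fewer interactions had larger fitted falls. The largest rises were the small RNAs Gm22973 and Snord118. Gm22973 had 18576 and 11634 interactions in ActD4 and 221 and 65 in NPM, and rose by a log2 difference of 7.98 (SE 0.60, adjusted p = 1.71e-05, limma). Snord118 had 8745 and 5882 against 296 and 46, a log2 difference of 6.98 (SE 0.83, adjusted p = 0.000315, limma). For both RNAs the groups did not overlap, and NPM 1 held several times the number of NPM 2. The other 10 of the 12 largest rises were protein-coding RNAs. Kdm4b had 312 and 211 interactions in ActD4 and 44 and 83 in NPM, a log2 difference of 3.13 (SE 0.19, limma adjusted p = 4.0e-06). Gli2, a transcription factor of Hedgehog signalling, had 1585 and 947 against 400 and 643, a log2 difference of 2.32 (SE 0.17, limma adjusted p = 1.42e-05). Rptor, the Raptor subunit of mTORC1, had 1194 and 709 against 278 and 499 (2.36, SE 0.18). Triobp (2.72), Sugp2 (2.57), Shb (2.51), Vav2 (2.38), Anks1 (2.37), Kazn (2.34) and Med26 (2.31), a Mediator subunit gene, completed the 12. Against untreated cells the order was not the same for all: Gm22973 had 44357 and 46203 CPM in ActD4 and 27706, 46384 and 39195 in 1FA, while Kdm4b had 745 and 838 in ActD4 and 213 to 260 in 1FA.

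By the same rule, 4 of the 12 largest falls were of RNAs listed at 0 in ActD4, namely Dab2 with 79 and 158 interactions in NPM, Hist1h1c with 175 and 69, Eda with 92 and 115, and Hist1h4d with 145 and 64. No fold is given for them. Ttn came next and is given last, since it rests on few interactions. The RNAs of 2 endoplasmic reticulum chaperones were the sixth and seventh. Hspa5 (BiP) had 26 and 13 interactions in ActD4 and 617 and 507 in NPM, a log2 difference of −3.85 (SE 0.25, limma adjusted p = 6.29e-06). Hsp90b1 (GRP94) had 23 and 18 against 628 and 576 (−3.81, SE 0.23, limma adjusted p = 4.38e-06). Hspa5 reached 1419.7 and 833 CPM in NPM and at most 33.2 in 1FA, with ActD4 at 62.1 and 51.6, so that NPM was the group that stood apart. The others, Gpc6, Gmds, Pnn, Gm26917, Grip1 and Ttn, had fewer than 10 interactions in at least 1 ActD4 library and passed the filter through NPM alone, so their numbers are a description. Gpc6 had 11 and 4 interactions in ActD4 and 167 and 204 in NPM, and Grip1 had 16 and 8 against 222 and 268. Gmds, Pnn and Gm26917 had 2 to 14 in each ActD4 library and 84 to 293 in each NPM library. Ttn had 17 and 0 against 85 and 119, and lost its call without NPM 1 (limma adjusted p = 0.151) or NPM 2 (0.150).

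By class, 371 of 1198 protein-coding RNAs of genes of 100–300 kb were higher (31.0%) and 315 lower (26.3%), with a median log2 difference of 0.07, against 17.7% and 24.6% of all RNAs. Of the lower ones, 145 were listed at 0 in ActD4, where no result is read. Genes over 300 kb had 67 higher (25.1%) and 125 lower (46.8%) of 267, with 63 of the lower listed at 0. Genes of 10–100 kb had 767 higher (14.4%) and 1216 lower (22.9%) of 5314, with 469 listed at 0. Long intergenic noncoding RNAs had 13 higher (14.9%) and 45 lower (51.7%) of 87, with 29 of the lower listed at 0. Most of these lower calls are therefore no result, and no depletion is read from the 51.7%. Antisense RNAs had 2 higher (4.65%) and 18 lower (41.9%) of 43, with 9 listed at 0. Among snoRNAs 18 of 62 were higher (29.03%) and 8 lower (12.9%), with 5 of the lower listed at 0.

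Nuclear and architectural long noncoding RNAs had 2 of 18 tested members higher (11.1%), against 17.7% of all RNAs. Of the 15 with an interaction in ActD4, 10 were lower (66.7%), against 15.6% of all such RNAs, and the other 3 were listed at 0 there. The 10 include Gm26917, which passed the filter through NPM alone, so this share is a description. Neat1, which builds paraspeckles, had 59 and 24 interactions in ActD4 and 382 and 535 in NPM, and fell by 2.52 on the log2 scale (limma adjusted p = 2.09e-05). Rian had 43 and 26 against 182 and 372 (−1.90), Kcnq1ot1, which silences an imprinted cluster, 165 and 89 against 367 and 552 (−0.84), and Meg3 170 and 111 against 342 and 639 (−0.71). For these 4 the number in NPM was higher in both libraries. Firre (−1.48) and Airn (−2.25) were also lower, and Mirg, Mir17hg and Terc were listed at 0 in ActD4. Pvt1, the long noncoding RNA gene beside Myc, was higher, with 1525 and 873 interactions against 846 and 1543 (1.07, limma adjusted p = 0.00479). Lncenc1 was higher (0.65) but lost that call with library totals.

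Of 21 small RNAs of ribonucleoproteins tested, 7 were higher (33.3%) and 5 lower (23.8%), against 17.7% and 24.6% of all RNAs, with 3 of the lower listed at 0 in ActD4. Of the 18 with an interaction there, 2 were lower (11.1%, against 15.6% of all such RNAs). With library totals 4 of these 18 were higher and 2 lower (22.2% and 11.1%, against 10.9% and 27.7%). With library totals Rnu3a, Snord15a and Snord15b were no longer called. Snord13 had 578 and 376 interactions in ActD4 and 377 and 113 in NPM (2.22, limma adjusted p = 0.0184). Rn7sk, the 7SK RNA that holds P-TEFb inactive, had 168 and 86 against 109 and 112 (1.17, limma adjusted p = 0.00184), with counts that overlapped before scaling. Rnu3a had 728 and 494 against 600 and 161 (2.00, limma adjusted p = 0.0368). Rmrp did not pass the test, at 760 and 462 against 1122 and 886. Scarna2 was lower (−0.88), with 42 and 44 against 141 and 194. Both mitochondrial ribosomal RNAs were lower, mt-Rnr1 with 389 and 203 against 2685 and 1142 (−1.58, limma adjusted p = 0.0292) and mt-Rnr2 with 329 and 155 against 2073 and 892 (−1.54, limma adjusted p = 0.0327).

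Immediate early and short-lived messenger RNAs had 7 of 17 members higher and 2 lower (41.2% and 11.8%), or 6 and 3 with library totals (35.3% and 17.6%). The higher ones include Jun, described below as passing the filter through ActD4 alone, so these shares are descriptions. All 17 had an interaction in ActD4, and the shares of all such RNAs were 19.8% and 15.6%, or 10.9% and 27.7% with library totals. Junb, an AP-1 subunit, had 56 and 41 interactions in ActD4 and 10 in each NPM library (3.23, limma adjusted p = 0.000105). Btg2, an antiproliferative factor, had 68 and 41 against 15 and 15, and Jun had 25 and 13 against 2 and 6 and passed the filter through ActD4 alone. Mcl1, a short-lived survival factor, was higher (0.68) but lost that call with library totals, and Spry4 was lower (−1.48). Targets of p53, the tumour suppressor induced by DNA damage, had 5 higher (27.8%) and 4 lower (22.2%) of 18, against the same 19.8% and 15.6%, or 4 and 7 with library totals (22.2% and 38.9%, against 10.9% and 27.7%). Cdkn1a, which encodes p21, had 54 and 43 interactions in ActD4 and 11 and 18 in NPM (2.77, limma adjusted p = 0.000147), and Aen, an apoptosis-enhancing nuclease, 73 and 44 against 23 and 47 (1.82). Mdm2, the ubiquitin ligase of p53, had 37 and 20 against 94 and 175 and was lower (−1.17). For Cdkn1a the levels in CPM were 129 and 171 in ActD4, 25.3 and 29.6 in NPM and 29.985 to 54.9 in 1FA.

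Among RNAs of histone genes, whose messengers mostly peak in S phase, 12 of the 14 that could be tested were listed at 0 in ActD4, so that nothing is read from their calls. The list takes in H1f0, a linker histone not tied to replication, with 6 and 1 interactions in ActD4 and 26 and 19 in NPM, which passed the filter through NPM alone. Of 18 genes of very large size tested, 4 were higher (22.2%, against 17.7% of all RNAs) and 7 were listed at 0 in ActD4. Among the 11 with an interaction there, 4 were higher and 4 lower (36.4% each, against 19.8% and 15.6% of all such RNAs). Genes that passed the filter through NPM alone were not separated, so these shares are descriptions. Of the 11, Pard3, a polarity factor, had 891 and 513 interactions against 392 and 628 (1.50) and Auts2 852 and 508 against 624 and 899 (0.87), both higher. Wwox had 744 and 438 against 1185 and 2026 and did not pass the test (−0.39) but was called lower with library totals (−0.78, limma adjusted p = 0.00930).

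Pluripotency genes had 3 members higher (13.6%) and 8 lower (36.4%) of 22, against 17.7% and 24.6% of all RNAs, with 1 of the lower listed at 0 in ActD4. Of the 21 with an interaction there, 7 were lower (33.3%, against 15.6%). They include Sox2, described below as passing the filter through NPM alone, so this share is a description. With library totals 1 of these 21 was higher and 9 lower (4.76% and 42.9%, against 10.9% and 27.7%), and Stat3 and Klf2 were no longer called. Esrrb, an orphan nuclear receptor of the naive network, had 497 and 305 interactions in ActD4 and 352 and 525 in NPM (0.91, limma adjusted p = 0.00179). Trim28, a corepressor of retroelements, had 39 and 19 against 157 and 151 (−1.44), and Sox2 had 7 and 5 against 60 and 45 and passed the filter through NPM alone. Tet1, with 600 and 352 against 735 and 1234, and Jarid2, with 1211 and 711 against 983 and 1761, did not pass the test. Polycomb genes, all 23 of which had an interaction in ActD4, had 4 higher (17.4%) and 5 lower (21.7%), against 19.8% and 15.6% of all such RNAs (median log2 difference −0.01). With library totals 3 were higher and 9 lower (13.04% and 39.1%, against 10.9% and 27.7%), and Suz12 was no longer called. Rybp (1.46) and Cbx7 (0.96) were higher and Mtf2 (−1.19) and Eed lower.

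Splicing regulators had 6 higher (13.04%) and 15 lower (32.6%) of 46, against 19.8% and 15.6% of all RNAs with an interaction in ActD4. All 46 had such an interaction. With library totals 3 were higher and 21 lower (6.52% and 45.7%, against 10.9% and 27.7%), and Qk, Hnrnpc and U2af1 were no longer called higher. Regulators that passed the filter through NPM alone were not separated, so these shares are descriptions. Rbfox2 had 683 and 394 interactions against 357 and 560 (1.27), Mbnl2 366 and 216 against 220 and 349 (1.07), and Hnrnpu, which encodes a scaffold attachment factor, 65 and 40 against 396 and 457 (−2.0). Hosts of small nucleolar RNAs had 1 higher (7.14%, against 17.7%) and 7 lower of 14, with 1 of the lower listed at 0 in ActD4. The other 6 were 46.2% of the 13 with an interaction there, against 15.6%. Hosts that passed the filter through NPM alone were not separated, so this share is a description. With library totals 0 of these 13 were higher and 7 lower (53.8%, against 27.7%). Eif4a2 had 30 and 21 against 127 and 190 (−1.56), and Gas5 was listed at 0 in ActD4 with 55 and 135 in NPM. Cytosolic ribosomal protein genes had 7 higher (16.3%, against 17.7% of all RNAs) and 2 lower (4.65%, against 24.6%) of 43. Of the 42 with an interaction in ActD4, 1 was lower (2.38%, against 15.6%). With library totals 5 of these 42 were higher and 7 lower (11.9% and 16.7%, against 10.9% and 27.7%). Rps14 had 42 and 32 against 16 and 10 (2.52). Of the marker lists, the 7 markers of differentiated or feeder cells summed to 64.5 and 63.5 CPM in ActD4 and 274 and 245 in NPM. The part of such cells in these differences was not tested.

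Beyond the RNA's own gene, 2018 RNAs could be tested, of which 643 (31.9%) were higher and 115 (5.7%) lower in ActD4 (limma, adjusted p under 0.05). All 446 that were listed at 0 in NPM were called higher, and 619 of the 643 reached the 10 interactions of the filter in both ActD4 libraries but not in both NPM libraries, so that these calls are no result. Of the 206 RNAs with at least 10 such interactions in all 4 libraries, 24 were higher and 39 lower. Without the chr17 bin the calls were 1319 higher and 49 lower, and the median log2 difference went from 0.64 to 4.39, so the size of these differences depends on that bin. The 758 calls in all became 471 without ActD4 1, 470 without ActD4 2, 1192 without NPM 1 and 1289 without NPM 2. The largest fitted rises were RNAs with next to no listed contact outside their gene in NPM. Trerf1 had 121 and 93 such interactions in ActD4 and Shb 128 and 81, and both were listed at 0 in NPM. Kdm4b had 228 and 152 against 0 and 1, Rnf216 183 and 120 against 1 and 9, and Med26 173 and 109 against 2 and 7. Pcbp3, Nup62 and Ppard had 71 to 143 in each ActD4 library and 1 to 9 in each NPM library. These 8 passed the filter through ActD4 alone, so their numbers are a description. The calls of Kdm4b, Rnf216, Pcbp3, Nup62, Med26 and Ppard were lost when either ActD4 library was left out.

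RNAs called lower beyond their own gene included Snord14e, with 77 and 57 interactions against 296 and 194 (−4.17, SE 0.78, limma adjusted p = 0.0233), a call lost without ActD4 1 (0.233) or ActD4 2 (0.203). Wwox had 251 and 137 against 106 and 236 and Fgfr2 428 and 273 against 127 and 226. Their fitted differences of −2.10 and −1.31 have the opposite sign to these numbers, because this fit sets each RNA against all interactions beyond the own gene in its library, which were far fewer in NPM, and both lost their call when either ActD4 library was left out.

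Within each RNA, the ratio of interactions beyond 1 kb to those within 1 kb was compared for 2426 RNAs with at least 20 interactions in every library. It was higher in ActD4 for 2422 of them (99.8%) and lower for 0 at an adjusted p under 0.05, with a median log2 difference of 5.33. This measure compares an RNA with itself and does not depend on library scaling. Lyrm4 had 12.3% and 8.33% of interactions within 1 kb in ActD4 and 98.8% and 100% in NPM, which left 1 and 0 interactions beyond 1 kb there. Foxo1, a forkhead transcription factor of insulin signalling, had 8.96% and 7.46% against 98.9% and 97.7%. By fitted difference the 8 largest also held Gng2, a G protein subunit gene, Gm38394, Sertad2, Klhl26, Arhgap39 and Gm22973. In all 8 but Gm22973 at least 1 NPM library had 0 or 1 interaction beyond 1 kb, so that the size of their difference and their order depend on the 0.5 added to each number and are not given. For Gm22973 the log2 difference was 9.11.

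The 4 RNAs that did not pass were Abcf1, Hnrnph1, Leng8 and Snord14e. Hnrnph1 had 50.0% and 40.6% of interactions within 1 kb in ActD4 and 52.1% and 72.9% in NPM (log2 difference 1.03, limma adjusted p = 0.106). Leng8 had 71.8% and 76.9% against 92.5% and 81.2% (1.32, limma adjusted p = 0.0542) and Abcf1 22.9% and 36.4% against 40.0% and 89.3% (2.38, limma adjusted p = 0.0556). Snord14e had 7.23% and 6.56% against 11.9% and 9.35% (0.57, SE 0.42, limma adjusted p = 0.222). In Hnrnph1 and Leng8 a high share lay within 1 kb even in ActD4, whereas in Snord14e it was low even in NPM. Rn7sk (1.53), mt-Rnr2 (2.69) and mt-Rnr1 (2.74) passed with differences below the median of all RNAs tested.

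The pooled lists shared more RNAs than contacts. ActD4 listed 8478 RNAs and NPM 11679, of which 8072 were in both, 95.2% of the ActD4 list and 69.1% of the NPM list. Of pairs of an RNA and a 25-kb bin, 19241 were in both, 46.6% of the 41314 in ActD4 and 62.6% of the 30730 in NPM. Outside the RNA's own gene ActD4 listed 30293 pairs and NPM 4695, and the 1306 shared pairs were 4.31% and 27.8% of these. The NPM pairs outside the own gene include those with the chr17 bin.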

How the data were processed

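RADICL-seq libraries were compared as deposited. The authors took the tags out of the reads, discarded ribosomal RNA and duplicate reads, and mapped each kind of tag on its own to mm10 using BWA 0.7.15-r1140 (CASAVA 1.8 is also named in the submitters' processing notes). They kept mapping quality 37, assigned RNA tags to genes by strand and DNA tags to 25-kb bins. The deposited files carry tag positions and the authors' p-values and adjusted p-values of each pair of an RNA and a bin, from a one-sided binomial test on pooled replicates with adjusted p under 0.05. Pairs below that threshold are not listed, so sequencing depth was not analysed here, and no interval or limit for a listed 0 is given.

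The authors' p-values were not used to compare groups. Lines with the same RNA and DNA tag positions were counted once. Of 19293210 tag positions, 0 lay beyond a GRCm38.p6 chromosome end. The authors used an earlier GENCODE release, and gene positions and symbols here are from GENCODE M21, which matched 14606 of 14765 RNAs (98.9%). An RNA tag and a DNA tag on different chromosomes were trans, distances were between tag centres, and an own-gene contact had its DNA tag inside the RNA's gene. The second sequencing run of NPM 1 was not a separate replicate.

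Shares were compared by the exact permutation test. Numbers of interactions per RNA (at least 10 in 2 libraries and 15 in all), capture beyond the own gene, and the log2 ratio of interactions beyond and within 1 kb (at least 20 in every library) were fitted with limma 3.58.1 in R 4.3.3, the first 2 as log2 CPM with a prior count of 0.5 and TMM factors (0.882 and 0.865 in ActD4, 1.15 and 1.14 in NPM for all interactions), and adjusted by Benjamini–Hochberg over all RNAs tested. Scripts were tested on simulated data. Python 3.11.15, pandas 2.3.3, numpy 2.4.6 and matplotlib 3.10.9 were used. RNAs were named by rule: the 12 largest changes each way with a mean of at least 100 interactions in the higher group and no overlap, the 10 with the most interactions or trans interactions, up to 4 of each gene list, and the 8 largest each way of the other fits. Members, gene lists and rules were chosen with earlier results of these data known, and some lists held a single member that could be tested. Alternatives were other scaling, filters, prior counts, weights, distances, counting each pair once, and leaving out RNAs, the chr17 bin or a library. The sequence of 1 further small RNA is not reported here.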

Additional observations from a re-analysis of the deposited data

How the results depend on the processing

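The share within 1 kb, the share beyond 1 Mb in cis, the own-gene share and the long noncoding RNA share kept their direction under every alternative tried. Without the 10 most captured RNAs the trans difference was −2.89 and the small noncoding RNA difference −0.426 percentage points. Without own-gene contacts the trans difference was −68.9, that beyond 1 Mb 0.0933 and that within 1 kb −5.32, where the alternative itself removes most contacts of the class. With pairs of at least 20 interactions at equal pooled numbers the own-gene difference was −20.2 and the intron difference 12.3, and with each pair counted once the intron difference was −0.987. Leaving out each library gave −72.0 to −70.3 within 1 kb, 3.80 to 5.06 in trans, 1.55 to 1.63 beyond 1 Mb, −40.7 to −39.5 for the own gene, 1.37 to 6.94 for introns, −1.15 to −0.881 for long and 5.33 to 6.98 for small noncoding RNA. The count of RNAs called was 3263 for capture, 6148 without a filter, 1009 with each pair counted once and 2281 to 3310 without 1 library. Beyond the own gene it was 758, 3745 without a filter, 1368 without the chr17 bin, 433 with each pair counted once, 471 without ActD4 1, 470 without ActD4 2, 1192 without NPM 1 and 1289 without NPM 2. For the distance ratio it was 2422, 987 of 988 with at least 50 interactions per library and 2413 to 2422 without 1 library. The replicate numbers did not pair the libraries (correlation of deviations −0.07), and with the replicate number as a block the calls were 3659, 742 and 2423. Of the RNAs named for the largest changes in the 3 fits, 443 values under alternatives kept their call, 32 lost it and 0 reversed. The tally takes in RNAs that passed the filter through a single group, whose calls are no result. RNAs that an alternative did not test are left out of it. It is therefore no support for the calls. Members of gene lists, some of which lost their call with library totals, are not in this tally. With 2 libraries a group, and lists that hold only pairs past a threshold, differences of RNAs with few interactions and the level of RNAs listed at 0 were not measurable. Blacklisted regions were not analysed here.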

Other observations

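L1 repeats, the long interspersed elements that are the most extensive transposon family of the mouse genome, held 0.781% and 0.744% of RNA tags in ActD4, 1.28% and 1.26% in NPM and 1.33%, 1.07% and 1.19% in 1FA. ERVK elements, endogenous retroviruses active in early embryos, held 0.224% and 0.219% in ActD4 and 0.305% and 0.314% in NPM. In both families the ActD4 libraries lay below those of NPM and 1FA. The short Alu-class repeats (B1) held 1.42% in both ActD4 libraries, 1.43% and 1.54% in NPM and 1.77%, 1.73% and 1.79% in 1FA. B1, B2 and B4 repeats thus had the same order, which was not particular to L1 and ERVK. In a further family, ERVL-MaLR, the ActD4 and NPM libraries overlapped. These shares were not tested.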
